A study of Caenorhabditis elegans with 2 samples.

Results

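Of the 4098 thresholded ELT-2 peaks in Caenorhabditis elegans late embryos, 399 (9.74%) had their summit in an intron of an autosomal protein-coding gene and away from every promoter. A summit is the position of highest signal in a peak. These members lay inside a protein-coding gene body, in no exon of a protein-coding transcript, and outside each window from 1000 bp upstream to 200 bp downstream of a protein-coding 5′ end. Summits within 200 bp of a tRNA, snoRNA or snRNA gene were left out. On autosomes as a whole there were 3242 thresholded summits. With summits near those small RNA genes left out here too, 1846 fell in promoter windows, 653 in distal intergenic sequence and 105 in exons outside promoter windows. On chromosome X, 91 summits met the same intronic rule.

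The data came from chromatin immunoprecipitation with sequencing (ChIP-seq), which maps where a protein sits on DNA, in 2 biological replicates of 1 group. Both were hermaphrodite embryos of strain OP56, genotype unc-119(ed3) III with the integrated transgene wgIs56, which carries ELT-2 with a GFP and FLAG tag at its C terminus. Embryos were collected 4 hours after egg bleaching. The description names an antibody to GFP, while the antibody field of the labels names elt-2. Material was whole animals, so the cells in which a peak arose are not known from these lists, and the fusion protein was expressed from a transgene. The labels call them biological replicates without saying whether separate cultures were grown, so their agreement covers whatever differed from one sample to the other. A peak here is a called position. Whether a control entered the authors' peak calling is not given in the sources used here, and none was used in the comparisons below. Signal is the authors' own value for each peak, of unstated scale, and sequencing depth is unknown.

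ELT-2 is a zinc finger transcription factor of the GATA family. It binds the letters TGATAA and close variants and is the main factor that keeps intestinal genes active once the endoderm is specified. An intron can hold an enhancer, a stretch of DNA that raises transcription of its own gene or of a neighbour, so a peak in an intron marks a position and not by itself a target gene. First introns of worm genes are often long and are a known place for such elements.

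Leaving out 1 autosome, whose sequences are not shown, the 8 strongest members that held TGATAA within 50 bp of the summit come first, because this site is the pattern on which the results turn. Each is the window from 50 bp before to 50 bp after the summit, read from the WBcel235 assembly (the same assembly as ce11) on the plus strand, with TGATAA or its reverse complement TTATCA in capitals. In ce11 coordinates they were vhp-1 at chrII:5323962-5324062, her-1 at chrV:9699366-9699466, T13B5.9 at chrII:1103853-1103953, ZK250.2 at chrII:1949263-1949363, eppl-1 at chrIV:8450693-8450793, dep-1 at chrII:9010119-9010219, E01G4.3 at chrII:13468129-13468229 and aakg-1 at chrIII:12549693-12549793.
vhp-1: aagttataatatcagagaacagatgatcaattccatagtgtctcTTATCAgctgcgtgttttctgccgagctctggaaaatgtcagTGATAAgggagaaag
her-1: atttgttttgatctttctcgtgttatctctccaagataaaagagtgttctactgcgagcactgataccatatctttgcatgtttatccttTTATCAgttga
T13B5.9: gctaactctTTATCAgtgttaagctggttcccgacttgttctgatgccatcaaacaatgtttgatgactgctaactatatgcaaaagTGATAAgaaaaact
ZK250.2: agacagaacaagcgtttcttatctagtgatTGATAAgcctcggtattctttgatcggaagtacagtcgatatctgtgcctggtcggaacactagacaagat
eppl-1: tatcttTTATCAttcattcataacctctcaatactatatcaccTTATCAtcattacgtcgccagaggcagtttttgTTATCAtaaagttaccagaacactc
dep-1: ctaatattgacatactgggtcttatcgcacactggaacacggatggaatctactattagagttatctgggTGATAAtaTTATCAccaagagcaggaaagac
E01G4.3: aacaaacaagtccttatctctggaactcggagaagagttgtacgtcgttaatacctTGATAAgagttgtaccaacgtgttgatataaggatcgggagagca
aakg-1: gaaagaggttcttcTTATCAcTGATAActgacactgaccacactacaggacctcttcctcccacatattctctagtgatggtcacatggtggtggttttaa
Of these windows, vhp-1, T13B5.9, dep-1 and aakg-1 held 2 sites, one on either strand, and eppl-1 held 3 on the same strand. In dep-1 both sites stood next to each other, 2 letters apart, and in aakg-1 they were 1 letter apart.

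The 3 strongest members with no TGATAA in the window are shown for contrast, leaving out the same autosome. They were klp-6 at chrIII:5031622-5031722, egl-27 at chrII:6842812-6842912 and Y54H5A.2 at chrIII:5146935-5147035, and they carry no capitals.
klp-6: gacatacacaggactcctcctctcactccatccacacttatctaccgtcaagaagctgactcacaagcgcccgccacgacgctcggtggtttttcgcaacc
egl-27: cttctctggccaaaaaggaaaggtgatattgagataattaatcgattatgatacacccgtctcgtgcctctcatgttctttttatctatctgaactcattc
Y54H5A.2: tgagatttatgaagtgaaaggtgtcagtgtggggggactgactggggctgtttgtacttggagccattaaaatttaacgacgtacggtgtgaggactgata
The klp-6 window lies at the edge of a gene for the RNA of the signal recognition particle, described further on.

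The strongest intronic summit lay in vhp-1 (WBGene00006923), a MAP kinase phosphatase gene that dampens stress signalling. Its peak signal was 592.5 in the thresholded list, 319.0 in replicate 1 and 271.1 in replicate 2. It stood at position 5324012 of chromosome II, 736 bp from the gene's first 5′ end, in a first intron of 8201 bp, and ranked 26 of the 4098 peaks. The second was in her-1 (WBGene00001842), the gene of a secreted factor that directs male fate. There the signal was 548.2, with 279.1 in replicate 1 and 266.2 in replicate 2, in an intron of 3336 bp at position 9699416 of chromosome V. Peaks in T13B5.9 (541.3; 281.6 and 259.9 in replicates 1 and 2) and ZK250.2 (532.8; 279.7 and 254.0) were nearly as high, and both lay in introns under 1000 bp, of 824 and 418 bp. In eppl-1 the signal was 483.5, with 249.4 and 232.2 in the replicates, in an intron of 218 bp. Below these 5 members came a gap, since the next, in the receptor-type tyrosine phosphatase gene dep-1, had a signal of 370.6 (190.7 and 178.8).

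The remaining members among the 15 strongest had signals between 311.9 and 356.2. They included zfh-2 (356.2), a zinc finger homeodomain factor, aakg-1 (325.0), a regulatory subunit of the energy sensor AMP-activated kinase, and acs-13 (320.7), an acyl-CoA synthetase. The others were ints-8 (327.8), a subunit of the Integrator complex, E01G4.3 (326.0), pkg-2 (318.2), a cGMP-dependent kinase, klp-6 (317.8), a kinesin of sensory neurons, cpt-6 (313.7), of the carnitine palmitoyltransferase family, and T23B5.3 (311.9). Replicate 1 was higher than replicate 2 at 14 of these 15, E01G4.3 being the exception at 159.0 against 162.9. Of the 15, 14 held TGATAA and ints-8 did not.

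Over all 399 members the signal spanned 67.7 to 592.5, its median was 110.6 and its quartiles were 83.0 and 156.2. Medians were alike in the other classes, 104.04 for distal intergenic, 106.3 for promoter and 104.2 for X intronic summits, but the highest promoter and distal peaks reached 1382 and 979.8. The members of lowest signal, next to the threshold, lay in efl-3 (67.9), daf-5 (67.8) and Y67D8A.2 (67.7). Intronic entries that did not reach the thresholded list were far more numerous: the pooled list of 30000 entries held 7694 intronic summits by the same rule, of which the 399 were 5.19%, and the highest of the others had a signal of 67.5. Among those 7295 weaker entries 9.72% held TGATAA, against 8.34% of windows of that length tiled over eligible intronic sequence (18615 of 223265 windows). That difference was not tested. The weaker distal intergenic and promoter entries held it in 12.95% and 13.5%.

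Every member but 1 overlapped an entry in the list of each replicate. The exception, in lact-2, had a signal of 156.9 in the thresholded list and 74.4 in replicate 2, with no overlapping entry in replicate 1. Over the other 398 members, signal was higher in replicate 1 at 272, and the log2 ratio of replicate 1 to replicate 2 had a median of 0.19 and an SD of 0.50. Its extremes were 2.22, in Y67D8A.2 (64.7 against 13.9), and -1.26. Spearman's rho between the replicates was 0.709, given as a description, since the members were chosen from a pool of both replicates. Some pairs of values were not separate: 6 members shared their replicate 1 entry with another member, and 4 their replicate 2 entry. As the strongest 4098 entries of each replicate count as strong, 300 members (75.2%) were strong in both. That share was 73.8% for distal intergenic summits (odds ratio 1.07, 95% interval 0.800 to 1.45, two-sided Fisher's exact p adjusted over 2 comparisons = 0.663) and 76.4% for promoter summits (odds ratio 0.937, interval 0.725 to 1.22, adjusted p = 0.663). Neither difference passed the test.

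**Figure D1:**
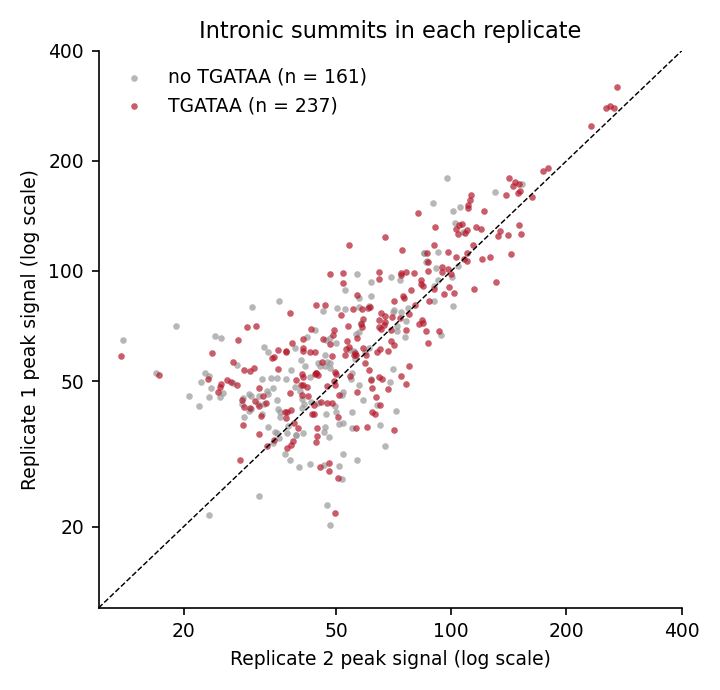
Peak signal of the 398 intronic members found in both replicates, replicate 2 on the x axis and replicate 1 on the y axis, both on log scales, with 1 point per member coloured by TGATAA within 50 bp and a dashed line of equality. The 5 highest points all hold the site, and points of low signal scatter most, up to a log2 ratio of 2.22.

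TGATAA lay within 50 bp of the summit in 238 of the 399 members (59.6%, 95% Clopper-Pearson interval 54.7 to 64.5%). In windows of the same length centred 500 bp to the left of the same summits, 34 (8.52%) held it, close to the 8.34% of all intronic windows. The site was at the summit alone in 217 members and in the flank alone in 13 (two-sided exact sign test p = 7.06e-49). As a control, AATAGT, the site read backwards, was at 9.27% of summits and 7.77% of flanks (exact sign test p = 0.519). A single site was present in 123 members, 2 sites in 79, 3 in 31 and 4 in 5. The nearest site was within 10 bp of the summit in 91 members and within 25 bp in 175, with a median distance of 13.5 bp. Counts of sites rose towards the summit, from about 2 per 100 summits in the outermost 20 bp bin to 25.3 in the 20 bp just left of the summit.

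**Figure D2:**
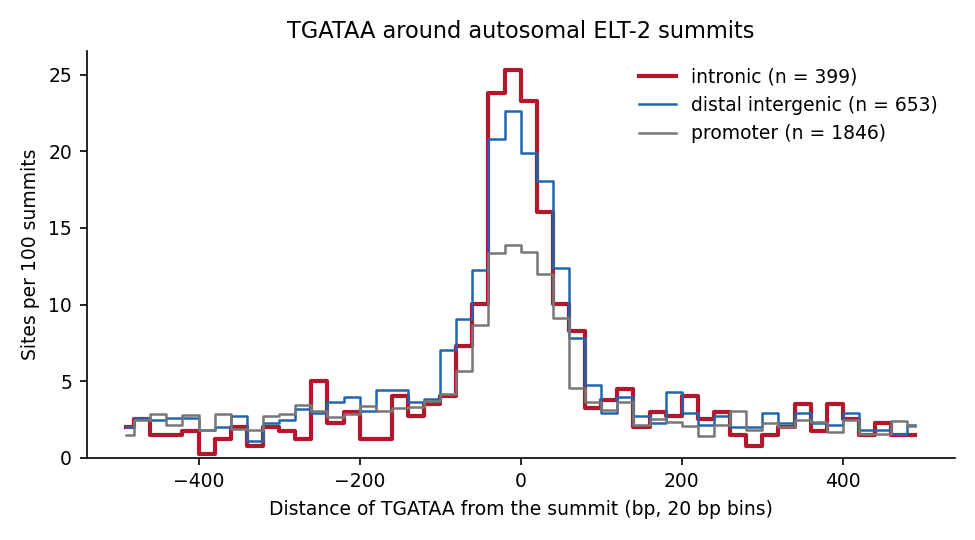
TGATAA sites on either strand per 100 summits (y axis) against distance from the summit in bp (x axis, 20 bp bins, out to 500 bp) for 399 intronic, 653 distal intergenic and 1846 promoter summits on autosomes. Intronic and distal lines peak at similar heights, with 25.3 intronic sites per 100 summits just left of the summit against 13.9 for promoters.

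The share with TGATAA was higher than at promoter summits, where 726 of 1846 (39.3%) held it. The odds ratio was 2.28 (95% interval 1.82 to 2.86, two-sided Fisher's exact p adjusted over 3 comparisons = 5.37e-13). Against distal intergenic summits, 57.6% with the site, the difference did not pass the test (odds ratio 1.09, interval 0.839 to 1.41, Fisher's exact adjusted p = 0.780). Its direction was not stable: among the 4098 strongest entries of replicate 2 alone the odds ratio was 0.757 (Fisher's exact adjusted p = 0.0458), and among those of replicate 1 alone 0.897 (adjusted p = 0.572). Intronic summits on chromosome X held TGATAA in 59.3% (odds ratio 1.01, interval 0.617 to 1.65, Fisher's exact adjusted p = 1). Autosomal exonic summits had a higher share, 71 of 105 (67.6%, interval 57.8 to 76.4%), a difference that was not tested. In windows tiled over the genome, TGATAA was in 8.34% of intronic, 9.07% of distal and 10.1% of promoter windows. The longer word TGATAAG was in 1.21%, 1.61% and 2.14% of them, in the same order. The part of background sequence in the class differences was not tested. Members with 2 or more sites made up 28.8%, against 27.6% of distal and 18.1% of promoter summits.

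Members with the site had higher signal. Their median was 124.0 against 93.4 for the 161 members without it. Of the members above the median signal 71.9% held TGATAA, and of the others 47.5% (odds ratio 2.81, interval 1.83 to 4.37, two-sided Fisher's exact p = 8.57e-07). Within the stronger 2049 thresholded peaks alone the odds ratio between intronic members above and below their median was 1.67 and did not pass the test (Fisher's exact p = 0.124). Sites had no preferred strand relative to the host gene that could be detected: of 187 members with sites on 1 strand and hosts on 1 strand, 87 had the gene's strand and 100 the opposite one (46.5%, interval 39.2 to 53.9%, two-sided exact binomial p = 0.380).

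The letters next to the site also differed from those at other intronic copies. Read along TGATAA, the following letter was G at 51.3% of the 394 sites in member windows and at 14.2% of the 19898 sites in all intronic windows. The letter before was C at 32.2% against 19.4%, the one before that A at 52.5% against 34.5%, and the second letter after was A at 51.3% against 36.8%. The longer word TGATAAG was accordingly in 40.6% of members and 1.25% of flanks, with 1.21% in intronic windows.

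All 6-letter words, 2080 when each is taken with its reverse complement, were compared between summit and flank windows of the 399 members. By exact sign test with Benjamini-Hochberg adjustment, 65 words (3.12% of those tested) were more frequent at the summit and 51 (2.45%) in the flank. Of the 65, 12 held the letters GATA. The word TGATAA came first and GATAAG second, and the next 4 words by p were also stretches of 6 letters that overlap this core, such as GTGATA. The word GATAAG was at 47.1% of summits and 3.01% of flanks (exact sign test, adjusted p = 3.10e-43). Words in the flank were rich in A and T, 16 of the 51 having no other letter. AAAATT was at 16.3% of summits and 42.9% of flanks (exact sign test, adjusted p = 1.41e-12). A and T made up a median of 61.4% of the summit windows and 65.3% of the flanks, and the part of base composition in these word counts was not tested. Outside the GATA words, GAGAGA was at 18.5% of summits and 7.02% of flanks (exact sign test, adjusted p = 6.50e-05). In the other classes it was at 20.4% of distal and 14.95% of promoter summits.

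The 161 members with no TGATAA were compared by the same exact sign test. This split on sequence keeps TGATAA out of their summit windows but not out of their flanks. Of the same 2080 words, 18 were more frequent at the summit and 25 in the flank. The 25 include TGATAA itself, at 0 summits and 13 flanks, a difference made by the split. By exact sign test, AGAGAG was at 21.1% of these summits and 3.11% of flanks (adjusted p = 1.80e-04), and GAGAGA at 24.8% and 4.97% (adjusted p = 2.80e-04). GAGACG (15.5% against 2.48%, exact sign test, adjusted p = 0.0103), AGACGC (10.6% against 0.621%, adjusted p = 0.0121) and CGCAGA (13.7% against 1.86%, adjusted p = 0.0125) overlap each other in their letters. ACACAC was at 18.01% against 3.73% (exact sign test, adjusted p = 0.00415). GATAAG was also more frequent at the summit, at 11.8% against 1.86% (exact sign test, adjusted p = 0.0434), although its copies within TGATAAG are barred there. The shorter core GATAA was in 23.6% of these 161 summits, against 20.5% of their flanks. Copies of GATAA within TGATAA are barred from these summits by the split, while 8.07% of the flanks held TGATAA. The 2 shares of GATAA are therefore not like for like and cannot show whether this shorter word as a whole was enriched. TGTTTAC, a word bound by forkhead factors, was at 1.00% of all member summits and 1.504% of flanks. CACGTG, bound by many bHLH factors, was at 3.01% and 0.501%, and at 3.68% of promoter and 3.98% of distal summits.

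Summits were sparser in introns than in distal intergenic sequence. There were 17.7 per Mb of eligible intron (95% Poisson interval 15.99 to 19.5, over 22.6 Mb), 33.8 per Mb of distal intergenic sequence, 83.1 per Mb of promoter windows and 5.81 per Mb of exon. Of the intronic and distal summits together 37.9% were intronic, against 53.9% of the bases (ratio of densities 0.523, two-sided exact binomial p = 3.98e-25). On chromosome X the intronic density was 20.01 per Mb (interval 16.1 to 24.6). By autosome the intronic density was 21.8 per Mb on II, 19.3 on III, 17.5 on IV, 16.5 on I and 14.4 on V, with intervals that overlap between neighbours in this order. The share with TGATAA ran differently, from 48.8% on I (interval 37.6 to 60.1%) and 51.2% on III to 59.8% on II, 67.5% on IV and 73.9% on V (interval 61.9 to 83.7%). For promoter summits the lowest and highest shares were also those of I (30.8%) and V (47.5%), while distal shares stayed between 53.6 and 60.4%. Summits were less often on bases that the reference marks as repeats: 14.5% of members lay on such bases, against 54.7% of eligible intron, and 40.6% of positions 500 bp to the left. The other classes shared this, with 13.8% of distal summits against 42.7% of positions 500 bp to the left. For promoter summits these shares were 20.5% and 35.0%.

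Long introns held far more summits per base than short ones. Density was 9.87 per Mb in introns under 500 bp (interval 7.60 to 12.6), 10.8 from 500 to under 1000 bp, 13.5 from there to 2000 bp, 26.0 from there to 5000 bp and 51.2 at 5000 bp or more (interval 42.4 to 61.4). Introns of 5000 bp or more held 117 members (29.3%) in 10.1% of the bases. The share with TGATAA was highest in the shortest group, at 76.6% of the 64 members in introns under 500 bp (interval 64.3 to 86.2%). In order of length the other groups held it in 62.1, 52.4, 58.8 and 53.8% (interval of the last 44.4 to 63.1%), with no steady fall. It was highest of all beside exons: of the 30 members within 50 bp of an exon 27 held the site (90.0%, interval 73.5 to 97.9%), a split chosen after the values were seen. By distance from the nearest protein-coding 5′ end the density changed less, from 14.5 to 21.7 per Mb, with the highest value between 1000 and 2000 bp.

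First introns held more summits than their length would give. They contained 187 members (46.9%, interval 41.9 to 51.9%) and 27.8% of eligible bases (two-sided exact binomial p = 7.08e-16), which is 29.9 per Mb against 13.0 per Mb in later introns. An intron counted as first when it was the first of any protein-coding transcript there. Intron length moves with this result: first introns held 10 of the 64 members in introns under 500 bp and 78 of the 117 at 5000 bp or more. Among introns under 1000 bp first and later densities were alike, 9.46 and 9.95 per Mb under 500 bp and 10.9 and 10.8 per Mb from 500 to under 1000 bp. Above that first introns were denser, at 26.0 against 9.18 per Mb from 1000 to 2000 bp, 37.2 against 18.9 from there to 5000 bp, and 61.2 against 38.6 at 5000 bp or more. Restricted to introns of 2000 bp or more, an alternative added after the data were seen, first introns held 1.36 times their share of bases (two-sided exact binomial p = 1.80e-06), against 1.69 times over all introns. TGATAA was in 54.01% of first-intron members and 64.6% of later ones (odds ratio 0.644, interval 0.421 to 0.981, two-sided Fisher's exact p = 0.0324, not adjusted). Across the length groups this order did not hold throughout. Under 500 bp the site was in 4 of 10 first-intron members (40%) and 83.3% of later ones. The order was opposite from 500 to 1000 bp (78.6% of first-intron and 56.8% of later members) and from there to 2000 bp (58.1% and 46.9%). In the longer groups first introns were again lower, at 55.6% against 62.8% up to 5000 bp and 48.7% against 64.1% beyond.

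**Figure D3:**
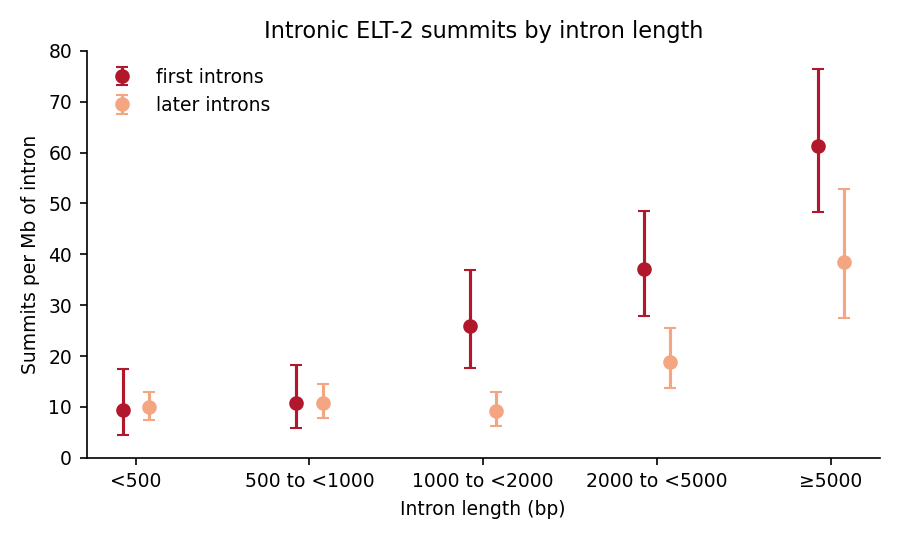
Intronic summits per Mb of eligible intron (y axis) by intron length in bp (x axis) for first and later introns, with points as observed densities and bars as 95% Poisson intervals that cover counting error only. First and later introns are alike below 1000 bp, and first introns are denser from 1000 bp up, reaching 61.2 per Mb against 38.6 at 5000 bp or more.

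The 399 members lay in 305 host genes, 51 of them with 2 summits, 19 with 3 or more and the others with 1. Among the 11635 autosomal protein-coding genes with at least 200 bp of eligible intron, 304 held a member, a background of 2.61%. Hosts had a median of 4426 bp of eligible intron, against 894 bp for the other genes. The share of genes that were hosts rose with that length, from 0.567% from 200 to 1000 bp to 23.4% at 10000 bp or more, so counts of hosts in any gene group depend on intron length. A thresholded summit also lay in the promoter window of 88 hosts (28.9%), against 12.9% of the other 11331 genes. Within length groups the host share was higher in each, by 40% against 11.7%, 16.2% against 13.3%, 35.3% against 15.9% and 27.4% against 19.7% from the shortest to the longest group. Members lay a median of 2844 bp from the first 5′ end of their host and at most 40113 bp from it, in introns of 43 to 20948 bp. The median distance to the nearest other thresholded summit was 3527 bp. None was closer than 199 bp, and 33 members stood at most 250 bp from a neighbour.

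The 5 hosts with most members were vhp-1, pkg-2, T28B11.1 and Y67D8A.2 with 5 each and Y61A9LA.1 with 4. In vhp-1 the first summit, at 592.5, stood well above the other 4, which had signals of 132.0, 123.1, 84.5 and 72.4, and 3 of those 4 held no TGATAA. In pkg-2 all 5 held the site, with signals of 318.2, 262.5, 101.9, 79.7 and 72.6, although none lay in a first intron. T28B11.1 carried all 5 of its summits in a first intron of 17091 bp, with signals of 295.0 at 255 bp from the 5′ end, then 101.6, 220.3, 93.5 and 114.4 in order of distance. In Y67D8A.2 the members at 263.1 and 152.5 held the site, and the 3 between 67.7 and 88.1 did not. Y61A9LA.1 had its strongest summit, 243.1, farthest from the 5′ end at 13387 bp.

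**Figure D4:**
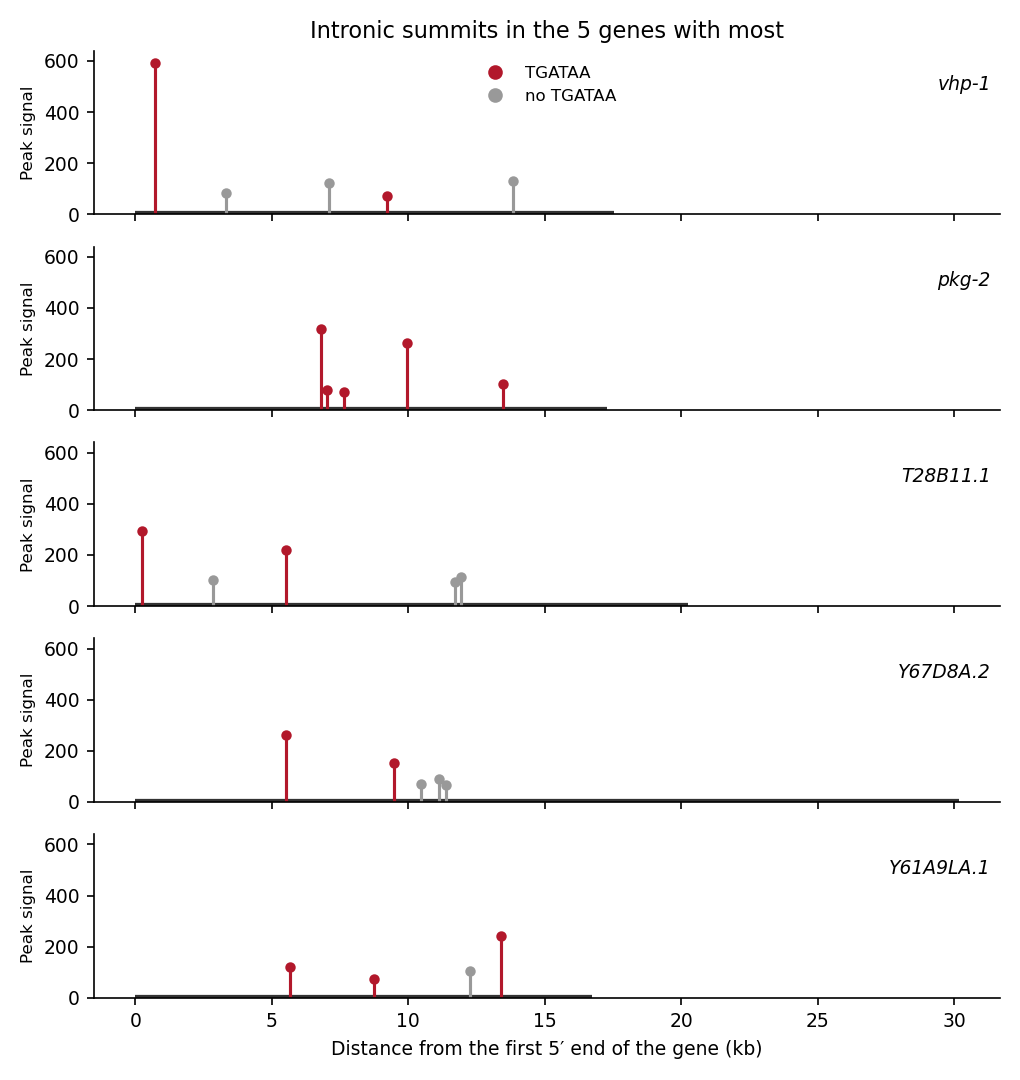
Signal (y axis, the authors' value) of each intronic summit against its distance in kb from the first 5′ end of the host (x axis) for the 5 hosts with most summits, with the dark bar as the gene's length and colours for TGATAA within 50 bp. In vhp-1 the summit nearest the start reaches 592.5, while in Y61A9LA.1 the highest, 243.1, is the one farthest from it.

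A few members lay in genes for structured RNAs that the rule did not remove. In all 23 members fell inside another annotated gene, 20 of them in a gene annotated as ncRNA, 3 in antisense RNA genes and 1 in a pseudogene, with 1 member in 2 kinds. The gene rpr-1, which encodes the RNA of RNase P, the enzyme that trims tRNA precursors, lies inside an ints-8 intron at 13463955 to 13464207 of chromosome I and held 2 members, with signals of 327.8 (173.0 and 153.3 in replicates 1 and 2) and 91.5 (66.3 and 24.1). The signal recognition particle RNA genes are named srpr. Of the 6 genes of either kind, 5 had a thresholded summit within 200 bp, and srpr-3 had none. The gene srpr-2.2, in a klp-6 intron, held 2 members at 317.8 and 298.1, with summits 210 bp apart. These shared 1 replicate 1 entry (180.0) and had 141.3 and 97.6 in replicate 2. The gene srpr-1.2, in a ckb-2 intron, held 1 member at 161.5 (98.3 and 56.7). Only 1 of the 5 members in rpr-1 and srpr genes had TGATAA, at 47.5 bp from the summit. Without these 5 the share with the site was 60.2% and the odds ratio between members above and below the median signal 2.89. This grouping was made after the values were seen.

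Host genes were also counted by function over 20 lists, against the background of 2.61% of genes and 1.78 summits per 100 kb of eligible intron. Intervals are exact and cover counting error only, and no list was tested. Of 19 measured genes of the intestinal lumen, polarity and cell junctions, 5 held a member (26.3%, interval 9.15 to 51.2%), at 5.51 summits per 100 kb. They were ifb-2, an intermediate filament of the gut (188.7), eps-8, an actin regulator of microvilli (101.4), the cadherin hmr-1 (83.2 and 73.2), the polarity gene par-3 (81.6) and jac-1, a catenin (72.8). Apart from ifb-2 these signals lay below the median of all members. In lipid metabolism 8 of 77 genes were hosts (10.4%), at 8.47 per 100 kb (interval 3.87 to 16.1), the highest observed density of any list. That interval overlaps those of the stress regulators (3.02 to 13.8) and signalling genes (3.16 to 13.1) below, so the order is not resolved. Besides acs-13 the hosts included acox-1.5 (245.7) and acox-1.3 (205.4), peroxisomal acyl-CoA oxidases, and pod-2 (226.7), the acetyl-CoA carboxylase that begins fatty acid synthesis. The pod-2 summit also lies in W09B6.4. Of the 9 summits in this list 7 held TGATAA.

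Among stress and metabolic transcription regulators 5 of 21 were hosts (23.8%, 6.997 per 100 kb). These were crh-1, the CREB factor (196.4), hlh-30, the TFEB factor of lysosome and lipid genes (191.9 and 73.6), skn-1, the Nrf factor of the oxidative stress response (159.5, 132.7 and 118.0), daf-16, the FOXO factor of insulin signalling (122.2), and egl-18, a GATA factor of the epidermis (99.6). The skn-1 summit at 118.0 also lies in clec-178. In hlh-30 the stronger summit had 3 sites and the weaker none. Signalling genes of the Wnt, Notch, TGF-beta and FGF pathways gave 7 hosts of 40 (17.5%, 6.91 per 100 kb), with cam-1, a Ror receptor (239.0 and 76.3), apx-1, a Notch ligand (138.8), and the Notch receptor lin-12 (135.6) as the strongest. Only 3 of the 9 summits in this list held TGATAA, and those of cam-1 and lin-12 did not. Detoxification enzymes had 6 hosts of 152 (3.95%), among them ugt-25 (230.1), cyp-13A3 (209.8) and gst-25 (185.2, a summit that also lies in spe-15), at 4.39 per 100 kb (interval 1.61 to 9.55), and the interval of the host share, 1.46 to 8.39%, holds the background.

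Lists of other tissues were mixed. Extracellular matrix and adhesion genes had 4 hosts of 29 (13.8%) but 2.34 summits per 100 kb, with a median of 3653 bp of eligible intron against 920 bp over all genes. They included rig-6, a contactin (177.8), unc-5, a netrin receptor (146.3 and 116.2), and vab-10, a spectraplakin (116.7). Epidermal genes had 3 of 25, namely noah-2 (186.3), vab-10 and pat-12 (97.9), at 2.61 per 100 kb. Neuronal genes had 2 of 66, unc-104 (193.5), a kinesin of synaptic vesicles, and egl-8 (90.9), a phospholipase C, at 0.629 per 100 kb (interval 0.0762 to 2.27). Homeobox, bHLH and other developmental factors had 4 of 83 (4.82%, interval 1.33 to 11.9%), hlh-30, lin-1 (102.3), pax-3 (92.8) and ceh-16 (89.8), at 2.52 per 100 kb. Nuclear hormone receptors had 2 of 221 (0.905%, interval 0.110 to 3.23%), nhr-31 (262.7, 102.8 and 100.9) and nhr-19 (122.9). Their density was 1.41 per 100 kb (interval 0.385 to 3.62), and both intervals hold the background. Of insulin and TOR genes, daf-16 was the only host among 17 (5.88%, 0.880 per 100 kb). Of metal and haem transporters it was ttm-1 (73.1) among 23 (4.35%, 1.15 per 100 kb). Of ABC transporters it was hmt-1 (167.6 and 99.5) among 37 (2.70%, 1.80 per 100 kb). For each of these lists, and for the homeobox list, the intervals of share and density hold the background. No member lay in 3 endoderm GATA genes, 29 digestive hydrolases and lysozymes, 23 body wall muscle, 15 pharynx, 41 collagen, 33 germline and 6 ribosomal protein genes with eligible introns. For the muscle list, which has the longest introns of these, a count of 0 leaves an upper bound of 3.02 summits per 100 kb, above the background density. The other lists without a member hold less eligible intron, with upper bounds from 10.2 (collagens) to 183 (ribosomal proteins) per 100 kb. For digestive hydrolases and lysozymes the bound was 14.1 and for endoderm GATA genes 162. A count of 0 therefore does not set any of these lists apart from the background.

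**Figure D5:**
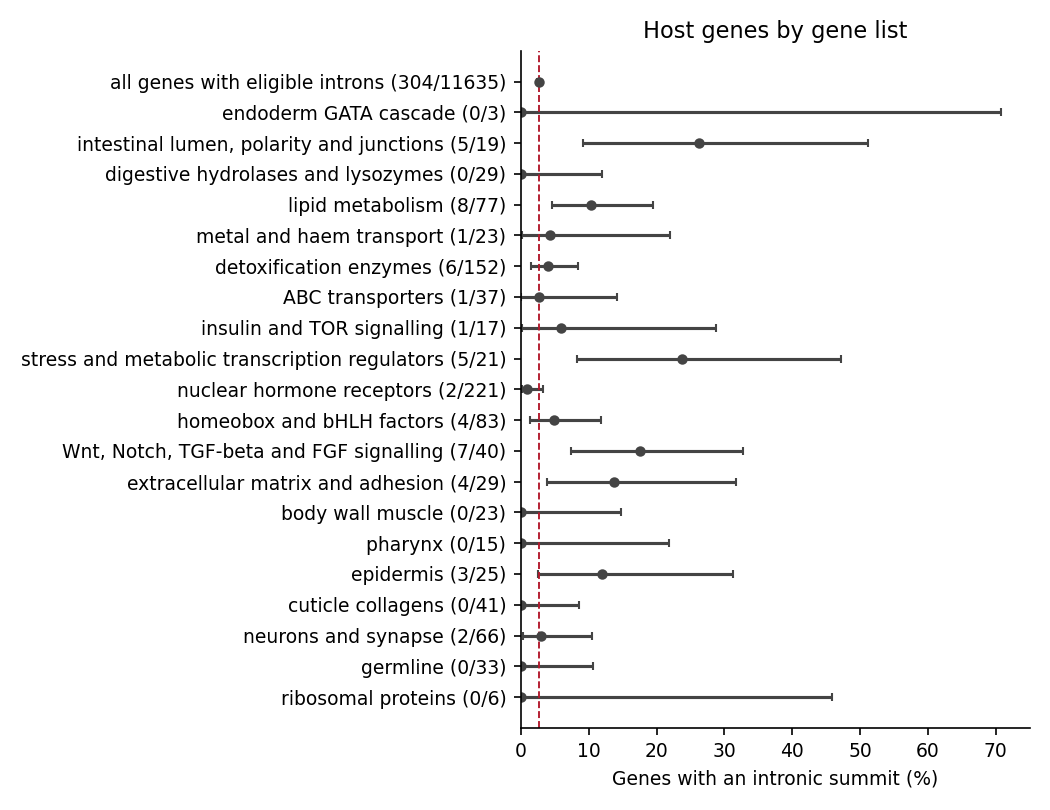
Percent of genes with at least 200 bp of eligible intron that hold an intronic summit (x axis) for all such genes and 20 gene lists (y axis, with hosts and genes in parentheses), points with exact 95% binomial intervals that cover counting error only and a dashed line at the background of 2.61%. The lumen list reaches 26.3% and the stress regulators 23.8%. Nuclear hormone receptors stand at 0.905%, with an interval of 0.110 to 3.23% that holds the background.

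The position rule set the edge of the group at promoters. It kept out 283 intronic summits that lay in a promoter window, of which 51.6% held TGATAA and whose median signal was 107.9. Just outside the rule, 37 intronic summits stood 151 to 200 bp from a 5′ end, with the site in 37.8% and a median signal of 103.4. Just inside it, 8 members stood over 200 and up to 250 bp away, with the site in 3 of 8 (37.5%) and a median signal of 106.6, the nearest being in ech-1.2 (156.4).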

How the data were processed

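Peaks of ELT-2-GFP ChIP-seq were deposited as narrowPeak lists in build ce11 for each of 2 replicates (25770 and 25986 entries), for the pooled replicates (30000) and as a thresholded list (4098) made by the irreproducible discovery rate procedure, per the deposited file listing. The values used are the authors' signal and, to describe peaks only, the authors' −log10 q-value. Which aligner and caller made them, and on what scale the signal stands, is not given in the sources used here. Lists in ce10 were not used here. Numbers of reads are unknown, so no depth could be given. Replicate agreement entered the thresholding.

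Summits were placed on the Ensembl annotation of release 115 and the WBcel235 sequence, 1-based, after checking that all peaks lay within its chromosome lengths. Each member was paired with the overlapping replicate entry of nearest summit. Shares were compared by two-sided Fisher's exact test, summits with flanks by exact sign test over members (regions of the same libraries, not replicates), and positions by exact binomial test against bases, with Benjamini-Hochberg adjustment where several were made. P-values and intervals therefore cover positions, not spread between animals. Named genes were the hosts of the 15 strongest members, the 5 hosts with most, and the 3 strongest hosts per gene list. Other hosts in the lists were named after their values were seen. The members, lists and tests were chosen with earlier results of these data known. The word comparison was tested on made-up sequences with a planted word. Alternatives changed the promoter window, peak list, exon definition, site window, flank and first-intron definition. Python 3.11.15, NumPy 2.4.6, SciPy 1.17.1, pandas 2.3.3 and matplotlib 3.10.9 were used.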

Additional observations from a re-analysis of the deposited data

How the results depend on the processing

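Of 89 values recomputed under 16 settings for 11 results, 71 kept their direction and their side of the threshold or, with no test, stayed within the 95% interval of a share or within 1.5 times a count. The number of members was 498 and 281 with the narrower and the wider promoter window, 483 with summits near small RNA genes kept and 377 with exons of any biotype. In the stronger 2049 thresholded peaks there were 207 members, 71.5% held TGATAA, and the odds ratios were 0.889 against distal intergenic summits and 1.67 between members above and below the median signal (Fisher's exact p = 0.124). TGATAA was in 41.4% within 25 bp and 67.7% within 100 bp, and TGATAAG in 40.6%. Within 100 bp the odds ratios turned to 0.872 against distal and 0.979 against X intronic summits, and with the promoter window of 2000 bp upstream and 500 bp downstream the latter was 0.907. With TGATAAG 52.4% of sites had the strand of the host. None of these reversals passed the test. Leaving out 1 replicate, that is taking the 4098 strongest entries of the other, gave shares with TGATAA of 49.6 to 53.9%, odds ratios of 0.757 to 0.897 against distal and 0.877 to 0.885 against X intronic summits. Of these, 0.757, from replicate 2 alone, passed the test. Members strong in both replicates fell to 69.4% with summits within 100 bp. The causes were not tested. No paired analysis was possible because there is 1 group.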
